A study of Mus musculus with 6 samples.

Results

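The cell cycle and DNA replication genes of the mouse small intestine were compared between Cftr null and Cftr control mice. The genes were chosen by a rule on symbols. It took the Mcm2 to Mcm7 helicase subunits, cyclins A, B, D and E, the cyclin-dependent kinases Cdk1 to Cdk7 and their inhibitors (Cdkn). Cyclin symbols had to carry a digit, and no cyclin F was among the members. Also taken were Cks1b and Cks2, the polo-like (Plk) and aurora kinases, Bub checkpoint genes and E2f factors. Subunits of DNA polymerases alpha, delta and epsilon and the origin recognition complex (Orc) were included. So was every gene named Cdc followed by a digit other than Cdc42 and its relatives. Rrm1, Rrm2, Top2a, Mki67, Pcna and Tyms completed the rule. It found 104 of the 12488 probe sets on the array, standing for 76 of the 8251 genes that had a probe set with a single gene symbol. No probe set with Tyms as its single symbol was among them, and 3 probe sets that carry a member's symbol beside others were left out. The symbols also bring in genes whose work lies elsewhere, such as the Hsp90 cochaperone Cdc37, the splicing factor Cdc5l and the neuronal kinase Cdk5, and these were kept as members.

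Cftr encodes an anion channel, opened by cyclic AMP, through which epithelia pass chloride and bicarbonate. The null mice were CFTR(-/-) and the control mice CFTR(+/+), 3 mice in each group, of which 2 were male and 1 was female (null replicate 2 and control replicate 3). Every mouse was congenic on the black6 background, was 40 days old and had been fed Peptamen, a liquid diet, since 10 days of age, so that null and control mice share the diet given against obstruction of the gut. The RNA of the whole small intestine of 1 mouse was hybridized to each 1-colour Affymetrix array. The labels do not say how the Cftr allele was made. With 3 mice a group, precision is limited throughout. The deposited values are scaled intensities in arbitrary units, and their 2%-trimmed mean lay at 500.3 on each of the 6 arrays. The tested probe set of Cftr read 325.9, 295.6 and 368.5 in null mice, against 801.6, 1017.5 and 1002 in control mice, with no overlap between the groups (log2 change -1.47, SE 0.15, limma adjusted p = 0.00421); the labels do not give the altered part of the gene. Enterocyte markers such as Apoa4, Fabp1 and Vil1 were well above the filter level described below in all 6 mice.

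A dividing cell copies its DNA once and then shares it out. In G1, D-type cyclins with Cdk4 phosphorylate the retinoblastoma protein and free E2F factors, which switch on genes of DNA synthesis. Origins bound by the origin recognition complex are loaded with the Mcm helicase and fired under cyclin E and cyclin A kinases, and the polymerases with their clamp Pcna copy the strands. Cyclin B with Cdk1, Plk1 and the aurora kinases drives mitosis until Cdc20 and the anaphase-promoting complex end it. In the small intestine this takes place mainly in the crypts, whose cells then stop dividing and move up the villi as they differentiate, while lymphoid tissue in the wall also holds dividing cells. RNA of the whole organ cannot tell more dividing cells apart from more RNA in each.

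The sequences before the annotated starts of 5 members are shown here. Cks1b and Plk1 passed the test described below; cyclin B2 (Ccnb2) and the reductase subunit Rrm1 did not, and have some of the next smallest adjusted p-values. The helicase subunit Mcm5, which did not pass either, is shown as an example of a window that holds E2F words. They are the 250 bases before the start, 5′ to 3′ on the gene's strand, from RefSeq on GRCm38.p6. Capitals mark 3 kinds of words searched on both strands: CCAAT, the box bound by NF-Y; TTTGAA, the cell cycle homology region (CHR) known from genes of mitosis; and the E2F words TTTCCCGC, TTTGGCGC, TTTCGCGC and TTTGCCGC, known from genes of DNA synthesis.
Cks1b, chr3:89418292-89418541, minus strand: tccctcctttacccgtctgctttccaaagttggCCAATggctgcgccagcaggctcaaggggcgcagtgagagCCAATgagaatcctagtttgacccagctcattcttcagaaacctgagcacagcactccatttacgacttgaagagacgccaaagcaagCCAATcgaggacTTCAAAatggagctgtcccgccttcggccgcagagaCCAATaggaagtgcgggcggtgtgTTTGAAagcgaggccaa
Plk1, chr7:122159185-122159434, plus strand: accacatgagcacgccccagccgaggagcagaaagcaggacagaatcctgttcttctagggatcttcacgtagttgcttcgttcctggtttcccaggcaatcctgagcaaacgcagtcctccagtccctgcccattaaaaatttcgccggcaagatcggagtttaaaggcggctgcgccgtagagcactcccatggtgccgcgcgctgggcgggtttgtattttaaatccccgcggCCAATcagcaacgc
Ccnb2, chr9:70421555-70421804, minus strand: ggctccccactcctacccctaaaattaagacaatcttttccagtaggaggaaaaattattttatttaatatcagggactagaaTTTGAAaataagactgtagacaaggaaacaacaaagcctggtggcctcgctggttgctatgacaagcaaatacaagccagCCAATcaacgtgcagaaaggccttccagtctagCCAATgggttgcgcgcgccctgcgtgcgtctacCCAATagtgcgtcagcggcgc
Rrm1, chr7:102441445-102441694, plus strand: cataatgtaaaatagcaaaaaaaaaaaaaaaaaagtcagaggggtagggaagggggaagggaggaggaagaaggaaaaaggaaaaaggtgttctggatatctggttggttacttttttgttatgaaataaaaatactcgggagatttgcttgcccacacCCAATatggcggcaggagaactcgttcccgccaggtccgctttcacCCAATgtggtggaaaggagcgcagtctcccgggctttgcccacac
Mcm5, chr8:75109259-75109508, plus strand: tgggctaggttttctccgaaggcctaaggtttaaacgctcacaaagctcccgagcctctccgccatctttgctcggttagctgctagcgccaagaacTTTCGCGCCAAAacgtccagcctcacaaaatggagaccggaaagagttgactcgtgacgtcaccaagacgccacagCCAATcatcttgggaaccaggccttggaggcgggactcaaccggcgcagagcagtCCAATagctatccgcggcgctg
The Cks1b sequence holds CCAAT beginning 217, 177, 89 and 41 bases before the start, and TTTGAA 17 bases before it and, on the other strand, 77 bases before it. In Ccnb2, CCAAT begins 87, 54 and 21 bases before the start and TTTGAA 167 bases before it, with a further TTTGAA from base 5 after the start, outside the printed run. Plk1 has a single CCAAT, 14 bases before the start, and TTTGAA from base 31 after it. In Rrm1, CCAAT begins 91 and 45 bases before the start. Mcm5, chosen for them, carries E2F words, which overlap on opposite strands 153 and 149 bases before the start, and has CCAAT 77 and 22 bases before it. Neither Rrm1 nor the polymerase subunit Pold2, which has 2 annotated starts and is not shown, holds an E2F word.

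Over windows of 300 bases, from 250 before to 50 after the start, 65 of the 76 members had a RefSeq entry. A gene with several starts counted if any of its windows held the word. An E2F word was found in 16 of the 65 (24.6%), against 2.6% of all 27025 genes with an entry. CCAAT was found in 41 (63.1%), against 41.1%, and TTTGAA in 17 (26.2%), against 20.2%. A match describes the letters of the window and not a site in use.

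Of the 104 member probe sets, 75 passed the filter on dim values, which asked for an intensity above 109.7 in at least 3 of the 6 mice; they stood for 63 of the 76 genes. Transcripts of 2 of these genes rose in Cftr null mice: Cks1b, the small subunit that docks on cyclin-dependent kinases, and Plk1, the polo-like kinase of mitosis. None fell at an adjusted p under 0.05 in limma. The 2 probe sets are 2.67% of the 75, against 1.13% of all tested probe sets called higher and 1.87% called lower. At an unadjusted p under 0.05, 12 member probe sets (16%) were higher, against 9.1% of all, and 2 were lower, against 8.17%. For a gene with several probe sets, the tested one with the highest mean over the 6 mice stands for it in counts of genes.

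The other members lay mostly a little above 0. The log2 change, taken on log2(intensity + 12), was above 0 in 60 of the 75 probe sets, 80% against 54.3% of all those tested, and its median was 0.19, against 0.03. By gene it was above 0 in 50 of 63. The middle of the 75 was narrow, with quartiles at 0.04 and 0.30, and the ends were Ccnd2 (log2 change -1.45) and Cks1b (log2 change 0.94). These counts cover only the members bright enough to be tested and describe them; no test was made of the list. In the 29 dim probe sets left out, the log2 change was above 0 in 15 and below 0 in 14.

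**Figure D1:**
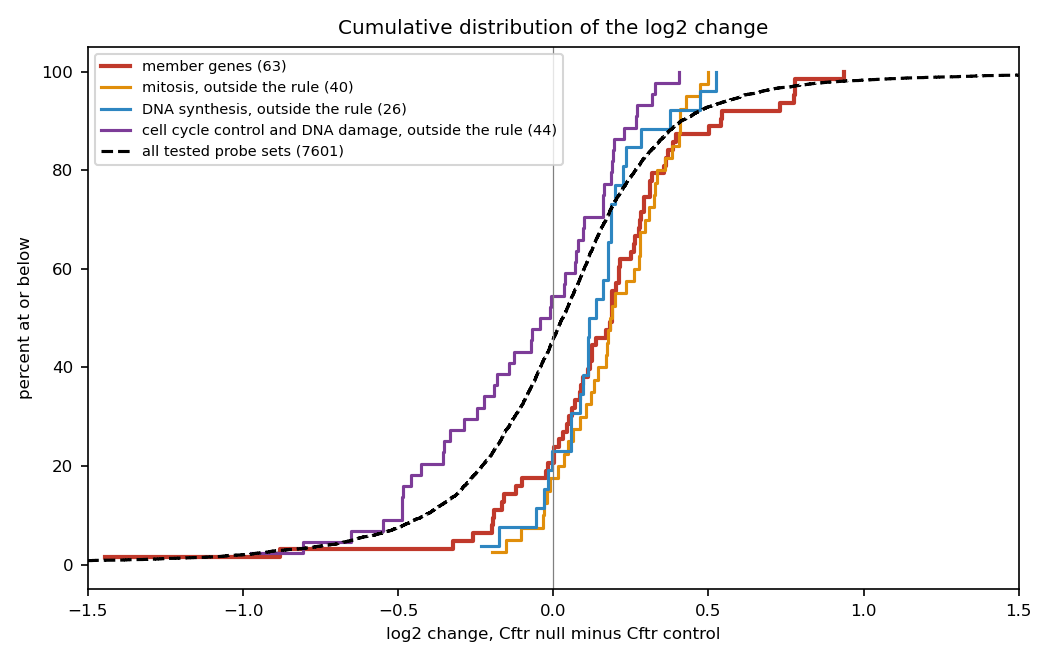
Cumulative percent of features (vertical axis) at or below a given log2 change, Cftr null minus Cftr control (horizontal axis), for the 63 tested member genes, for 3 lists of other cell cycle genes, and for all 7601 tested probe sets (dashed); values beyond 1.5 in either direction are not drawn. The curves of the members (median 0.19), of the mitosis list and of the DNA synthesis list run to the right of the dashed curve (median 0.03) over most of their length, and that of the control and DNA damage list to its left.

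Mouse by mouse, the median deviation of the 63 genes from the control mean was 0.11, 0.19 and 0.23 in null replicates 1 to 3, against 0.02, -0.04 and 0.05 in control replicates 1 to 3. The null mice thus lay above the control mice, and null replicate 1 was nearest to them. The same medians over all tested probe sets were 0.02, 0.04 and 0.04 in null mice, against 0.00, 0.01 and 0.01 in control mice. In null replicates 1 to 3, 25, 37 and 34 of the 63 genes exceeded all 3 control mice, which is 39.7%, 58.7% and 54.0%, against 30.8%, 32.5% and 32.7% of all tested probe sets.

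**Figure D2:**
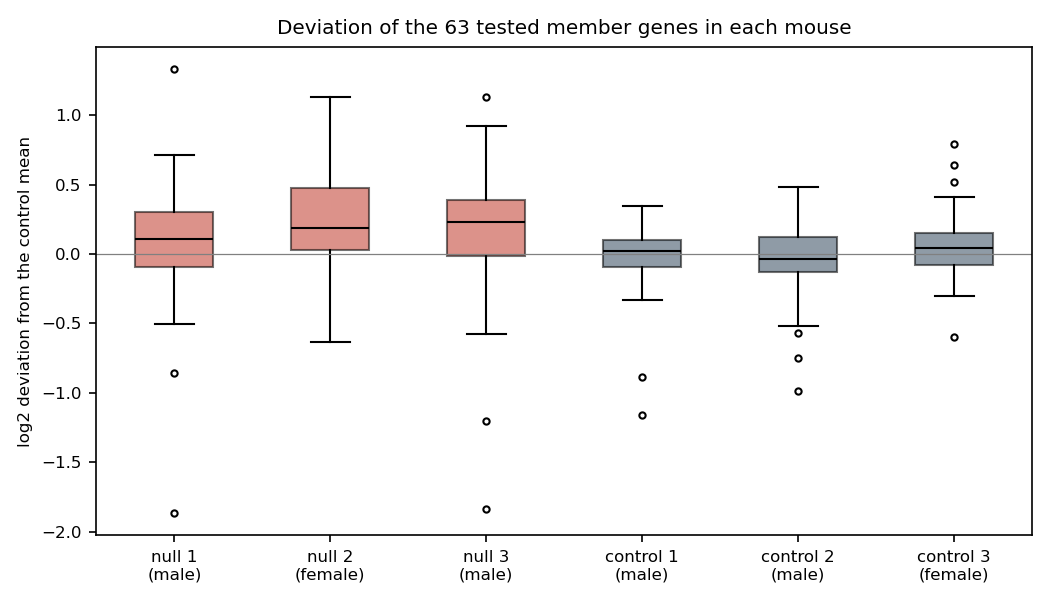
Log2 deviation of each of the 63 tested member genes from its mean over the control mice (vertical axis), 1 box per mouse, with the box from the lower to the upper quartile, the median as a line, whiskers to 1.5 times the box height and circles beyond. The medians of the 3 null mice lie between 0.11 and 0.23, above those of the 3 control mice, between -0.04 and 0.05.

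Null and control mice did not overlap in 21 of the 63 genes. Null mice were higher in 16 of them (25.4%, against 13.1% of all tested probe sets): Mcm5, Pold2, Rrm1, Top2a, Ccnd1, Ccna2, Ccnb2, Cdk1, Cks1b, Cks2, Cdkn2b, Aurka, Plk1, E2f3, E2f5 and Cdc37. Null mice were lower in 5 (7.94%, against 10.8% of all): Pola2, Ccnd2, Cdkn1c, Plk2 and Cdc123. Of these 21 genes, Cks1b and Plk1 passed the test. The 21 include E2f3 and Cdkn1c, each of which passed the filter only through the group where it was higher.

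Cks1b and Cks2 encode small proteins that bind cyclin-dependent kinases, and Cks1b also serves the ubiquitin ligase that marks the inhibitor p27 for destruction. Cks1b read 585, 696.9 and 783.4 in null replicates 1 to 3, against 319.7, 367.5 and 369 in control replicates 1 to 3. Every null mouse lay well above every control mouse, and the 3 control mice were close together. The means were 688 ± 99.5 in null mice and 352 ± 28.0 in control mice (SD, n = 3 each), a 1.91-fold rise (log2 change 0.94, SE 0.15, adjusted p = 0.0177). The adjusted p of Cks1b was 0.0509 without null replicate 2, 0.0596 without null replicate 3, 0.0762 without control replicate 1 and 0.106 in males only. Cks2 was at 871.6, 996.3 and 928.9 in null mice, against 849.9, 753.9 and 720.4 in control mice. Its groups did not overlap but lay close, and it did not pass (log2 change 0.26, SE 0.12, adjusted p = 0.314).

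The mitotic kinases and the spindle checkpoint came next. Plk1, which acts at entry into mitosis, on the spindle and in cytokinesis, has 3 probe sets, each with a letter before the ending of its name (g or f) that can mark probes shared with other transcripts. The probe set with the highest mean over the 6 mice read 701, 699.8 and 722.9 in null mice, against 490.2, 502.1 and 453.4 in control mice. The null mice were nearly equal, and all exceeded the control mice. The means of this probe set were 708 ± 13.0 and 482 ± 25.4 (SD, n = 3 each), a 1.46-fold rise (log2 change 0.54, SE 0.11, adjusted p = 0.0455). The other Plk1 probe sets differed by similar amounts without passing, with log2 changes of 0.55 (SE 0.14, adjusted p = 0.0938) for one and 0.48 (SE 0.20, adjusted p = 0.263) for the other, where control replicate 1, at 463.8, lay within the null values. The call for Plk1 ended with any 1 of the 6 mice left out (adjusted p between 0.0769 and 0.145), with quantile normalization (0.0529), without the filter (0.0606), with sex as a covariate (0.0631), without a variance trend (0.0748) and in males only (0.238). With all probe sets of such names left out, 1 member gene was called.

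Aurka, the aurora kinase of the spindle poles, read 303.6, 374.1 and 341.7 in null mice, against 289.3, 239.1 and 252.2 in control mice (log2 change 0.37, SE 0.15, adjusted p = 0.251). Its groups stood apart by a narrow gap. Aurkb, the kinase of the chromosomal passenger complex, Bub3, of the spindle checkpoint, and Plk4, which starts centriole duplication, had log2 changes of 0.13, 0.04 and 0.14. The stress-responsive kinases differed in the sign of their values. Plk2 read 420.2, 340.3 and 348.1 in null mice, all below the 428.2, 528.2 and 439.2 of control mice, without passing (log2 change -0.32, adjusted p = 0.31), and Plk3 was at 6044, 5317 and 5225 in null mice, against 5391, 3961 and 5389 in control mice (log2 change 0.18). The name of the single Plk3 probe set carries an r, which can also mark probes shared with other transcripts. All 3 probe sets of Bub1, the checkpoint kinase of the kinetochore, were too dim to be tested; the one with the highest mean read 99.8, 115.4 and 132.1 in null mice, against 92.4, 77.3 and 66.3 in control mice.

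**Figure D3:**
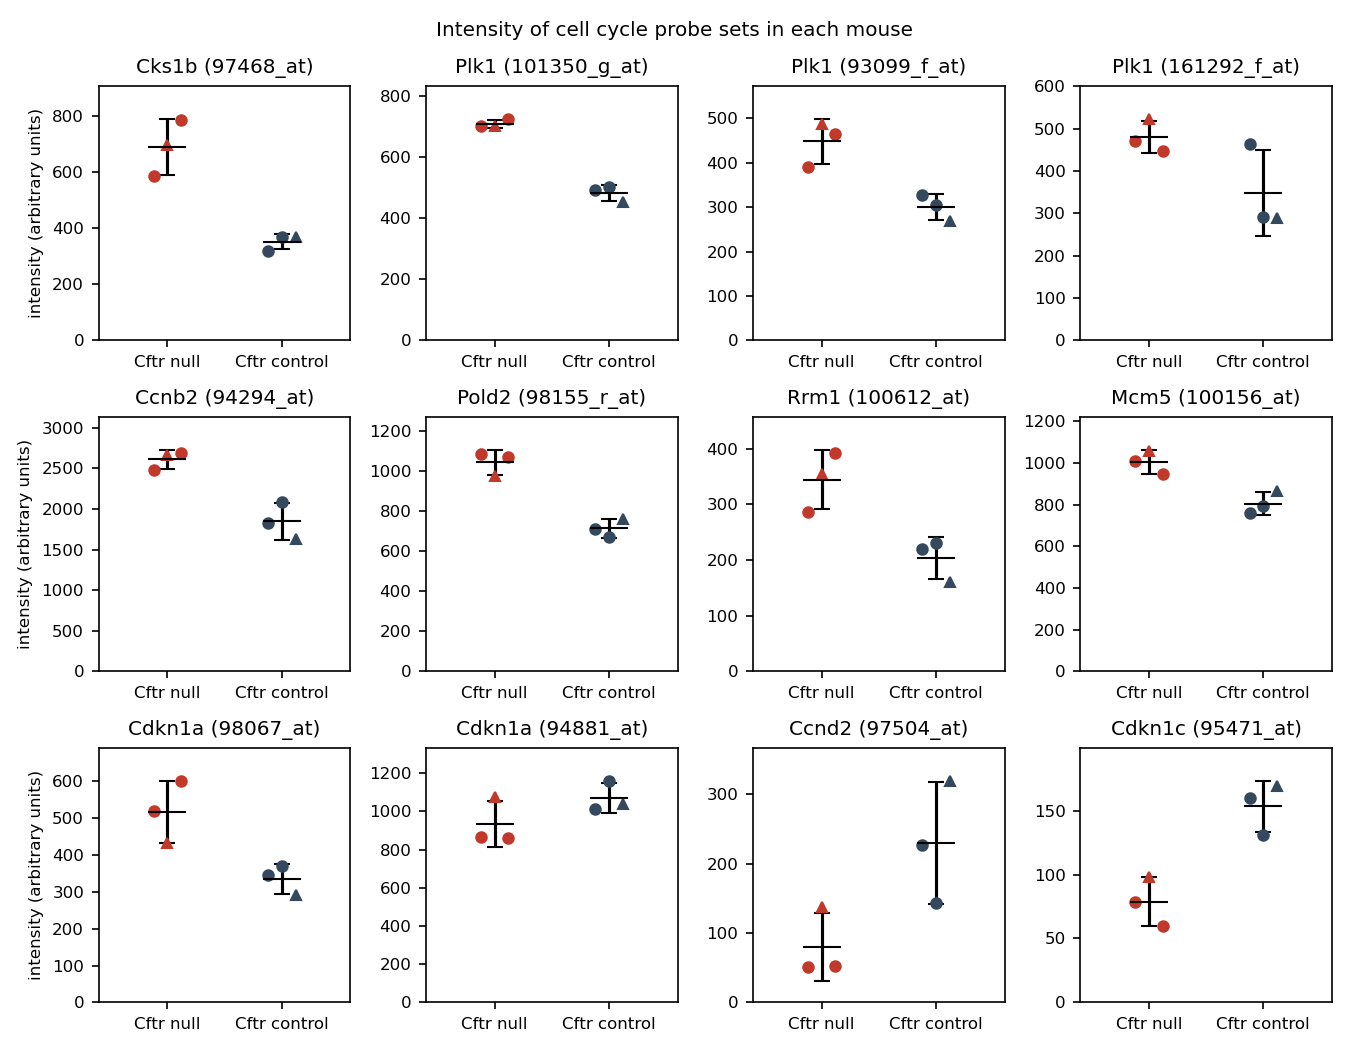
Intensity in arbitrary units (vertical axes, from 0) of 12 member probe sets in Cftr null mice (left, red) and Cftr control mice (right, blue); circles are males, triangles females, and the bars give mean ± SD of 3 mice. The null mice of Cks1b lie between 585 and 783.4, above the control mice between 319.7 and 369, and the 2 probe sets of Cdkn1a differ in opposite directions.

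Among cyclins of S phase and mitosis, Ccnb2, cyclin B2, read 2478, 2661 and 2687 in null mice, against 1827, 2084 and 1629 in control mice. No null mouse reached down to the control range. The means were 2609 ± 114 and 1847 ± 228 (SD, n = 3 each), but the difference did not pass (1.42-fold, log2 change 0.50, SE 0.12, adjusted p = 0.0824). Ccna2, cyclin A2 of S phase and G2, was at 1080, 1005 and 1165 in null mice, against 974.8, 824.6 and 931.3 in control mice, where the gap between the groups was smaller than the spread within them (log2 change 0.25, adjusted p = 0.343). The testis-type cyclin Ccna1 and the meiotic ubiquitin ligase Ccnb1ip1 were dim everywhere, at no more than 16.2 and 33.6.

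The cyclins of G1 did not share a direction. Ccnd1, cyclin D1, read 982.4, 1310 and 1066 in null mice, against 819.9, 775.1 and 959.4 in control mice (log2 change 0.39, SE 0.15, adjusted p = 0.241), while its other probe set had a log2 change of 0.09 and overlapping groups. Ccnd2, cyclin D2, had the lowest log2 change of the tested members. It read 51.3, 137 and 52.4 in null mice, against 226.7, 143.2 and 319.2 in control mice, so that the null female came within a few units of control replicate 2. Since the null mean of Ccnd2 lay under the filter level, its fold was taken by that level and was 1.90, lower in null mice. The difference did not pass in limma (log2 change -1.45, SE 0.42, adjusted p = 0.125, and 0.0412 with sex as a covariate). Ccnd3 and Ccne1 had log2 changes of 0.20 and 0.02, and Ccne2, of cyclin E, was dim, at 11.9, 25.7 and 13.4 in null mice, against 43.2, 25.7 and 37.8 in control mice.

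Of the kinases that pair with cyclins, Cdk1, the partner of cyclin B, read 683.4, 930.4 and 714.6 in null mice, against 660.7, 572 and 648.4 in control mice. The groups stood apart only narrowly, with the null female highest (log2 change 0.29, SE 0.15, adjusted p = 0.372). Cdk4, the partner of D-type cyclins, was at 1618, 1529 and 1892 in null mice and 1433, 1627 and 1409 in control mice, overlapping groups (log2 change 0.17), and Cdk2, which works with cyclins E and A, had a log2 change of -0.16. Cdk7, which activates the other Cdks and phosphorylates RNA polymerase, read 156.7, 221 and 140.8 in null mice, against 35.5, 124.5 and 172.4 in control mice. Control replicate 1 was far below the other mice (log2 change 0.78, SE 0.49, adjusted p = 0.462, and log2 change 0.20 without that mouse). The control mean of Cdk7 on the log2 scale lay under the filter level, and its fold by that level was 1.49, with overlapping groups. The neuronal Cdk5 had a log2 change of -0.16.

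The inhibitors of these kinases differed among themselves. Cdkn2b (p15), which blocks Cdk4 and Cdk6, read 1331, 1665 and 1304 in null mice, against 1055, 486.5 and 1091 in control mice, with control replicate 2 far below the other control mice (log2 change 0.78, SE 0.30, adjusted p = 0.234). Cdkn1c (p57) read 78.6, 97.9 and 59.4 in null mice, against 159.5, 131.1 and 169.1 in control mice. It passed the filter through the control mice alone. The fold of Cdkn1c by the filter level was 1.35, lower in null mice, without passing the test (log2 change -0.88, SE 0.27, limma adjusted p = 0.139). Cdkn1a (p21), the inhibitor induced by p53, has 2 probe sets that disagree. One read 517.5, 432 and 598.9 in null mice, against 345.6, 369.7 and 289.8 in control mice (log2 change 0.60, SE 0.16, adjusted p = 0.105), and the other read 865.9, 1075 and 861.4 in null mice, against 1015, 1158 and 1039 in control mice (log2 change -0.20, adjusted p = 0.492). No direction can be given for Cdkn1a. Cdkn2d (p19), at 398.8, 257.3 and 185.8 in null mice and 195.7, 70.1 and 242 in control mice, had overlapping groups (log2 change 0.78). Cdkn3, a phosphatase that acts on Cdks, and Cdkn2c (p18) had log2 changes of 0.36 and 0.00. Cdkn2aipnl, brought in by the Cdkn in its symbol rather than as an inhibitor, had a log2 change of 0.29. Cdkn1b (p27), the protein that Cks1b helps to remove, and Cdkn2a were too dim to be tested. One probe set of Cdkn1b read 23.6, 54 and 25.8 in null mice, against 87.4, 24.2 and 107 in control mice. The other read 27.2, 30.9 and 49.8 in null mice, against 48.2, 21 and 62.2 in control mice, and the groups overlapped in both.

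For DNA replication, the Mcm2 to Mcm7 proteins form the ring-shaped helicase that unwinds DNA. Mcm5 read 1010, 1060 and 947.9 in null mice, against 758.5, 792.6 and 865.6 in control mice. Its means were 1006 ± 56.0 and 806 ± 54.7 (SD, n = 3 each), groups that did not overlap, without passing (log2 change 0.32, SE 0.11, adjusted p = 0.208). Mcm7 was at 439.8, 537.7 and 576.9 in null mice and 361.9, 406.1 and 507.1 in control mice (log2 change 0.28, adjusted p = 0.442), overlapping like the other subunits. Mcm4 and Mcm3 had log2 changes of 0.28 and 0.07, Mcm2 one of -0.12, and Mcm6 was dim, at no more than 28. A second Mcm3 probe set had a log2 change of 0.28.

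Among members that load and fire origins, no tested one had groups apart. Cdc45, which joins the helicase at firing, read 249.5, 359.9 and 245.4 in null mice, against 242.1, 318.3 and 143.8 in control mice (log2 change 0.31, SE 0.29), with control replicate 3 far below the other mice. Cdc6, the loader of the helicase, was at 192.4, 220.9 and 254.7 in null mice and 155.1, 203.6 and 215.2 in control mice (log2 change 0.21), and Orc6 at 202.5, 374.3 and 299 in null mice and 306.4, 217.7 and 337.8 in control mice (log2 change 0.00). Orc5 and Orc4 had log2 changes of 0.19 and -0.19; Orc1, Orc2 and the kinase Cdc7, which fires origins, were too dim to be tested.

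Of the polymerases, Pold2, the accessory subunit of DNA polymerase delta, read 1085, 972.1 and 1067 in null mice, against 707, 669.3 and 760.4 in control mice. The null mice lay clear of the control mice, at means of 1041 ± 60.7 and 712 ± 45.8 (SD, n = 3 each), and the difference fell just short of the threshold (1.46-fold, log2 change 0.54, SE 0.11, adjusted p = 0.0513; 0.0358 with the filter at the 60th percentile). The name of its single probe set carries an r, another ending of doubtful specificity. The catalytic subunit Pold1 and the subunits Pold3 and Pold4 had log2 changes of 0.06, 0.13 and -0.02, so that no other delta subunit showed a comparable value. Pcna, the sliding clamp, read 1911, 2149 and 1896 in null mice and 2146, 1688 and 2008 in control mice, thoroughly mixed (log2 change 0.03, SE 0.13, adjusted p = 0.926). Pole3, a small subunit of polymerase epsilon, was at 644.3, 707.3 and 1041 in null mice and 672.4, 726.7 and 617 in control mice, with 1 null mouse apart (log2 change 0.21). The primase partner Pola2 read 482.9, 450.7 and 490.5 in null mice, all below the 510.7, 493.1 and 527.2 of control mice (log2 change -0.10), although its other probe set, at 107.7, 336 and 251.2 in null mice and 145.3, 159.9 and 236.6 in control mice, had a log2 change of 0.24. Pola1 had a log2 change of 0.05. Pole2 was dim, at no more than 39, and Pole4 was not tested, at 55, 67.9 and 80.1 in null mice and 94.4, 108.6 and 116.8 in control mice for 1 of its probe sets. The other Pole4 probe set read 26.1, 60.7 and 72.5 in null mice and 44.7, 53 and 62.2 in control mice, with overlapping groups.

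Ribonucleotide reductase makes deoxynucleotides from 2 kinds of subunit, Rrm1 and Rrm2. Rrm1, the large subunit, read 286.9, 353.6 and 391.7 in null mice, against 219.2, 229.8 and 160.9 in control mice (1.66-fold, log2 change 0.73, SE 0.19, adjusted p = 0.0942). Rrm2, the subunit whose level follows S phase, read 267.9, 407.3 and 340.4 in null mice and 277.3, 390.3 and 362 in control mice, which overlap fully (log2 change -0.02, SE 0.20, adjusted p = 0.964). The subunits thus had unlike values, though the difference between them was not tested. Top2a, the topoisomerase of dividing cells, was at 389.3, 477.3 and 387.3 in null mice, against 351.4, 312.7 and 334.5 in control mice (log2 change 0.31, SE 0.14, adjusted p = 0.295). Mki67, which encodes the proliferation antigen Ki-67, read 549.3, 841.9 and 543.8 in null mice and 624.3, 551.9 and 603.2 in control mice; the null female was high and both null males lay below the control mice (log2 change 0.09, SE 0.18, adjusted p = 0.843). Its second probe set, at 180.7, 202 and 149.4 in null mice and 217.6, 187.3 and 172.5 in control mice, had a log2 change of -0.11.

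The E2f factors, which control many of these genes, had log2 changes above 0 in every tested probe set, none of which passed. E2f3 read 119.1, 148.9 and 129.3 in null mice, against 108.2, 94.6 and 90.1 in control mice, so that it passed the filter through the null mice alone. Its fold by the filter level was 1.18, higher in null mice, without passing the test (log2 change 0.40, SE 0.23, limma adjusted p = 0.426). E2f5 was at 293.4, 256.9 and 302.8 in null mice, against a tight 233.7, 234 and 228.5 in control mice (log2 change 0.28, SE 0.14, adjusted p = 0.358). E2f8, a repressor, read 411.6, 565.7 and 355.9 in null mice and 509.6, 281.5 and 471 in control mice (log2 change 0.09), and E2f1 had a log2 change of 0.19 with an SE of 0.44.

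Cdc25 phosphatases, which switch Cdks on, overlapped between the groups in both tested probe sets. Cdc25a read 556.2, 578.3 and 747.6 in null mice and 463.6, 663.8 and 653 in control mice (log2 change 0.08, SE 0.18), and Cdc25c 148.9, 236.6 and 223.4 in null mice and 152.9, 207.8 and 194 in control mice (log2 change 0.11, SE 0.23). Cdc20, which activates the anaphase-promoting complex, was at 1623, 1282 and 1748 in null mice and 1263, 1314 and 1037 in control mice; both null males exceeded the control mice and the null female did not (log2 change 0.36, SE 0.16, adjusted p = 0.297). The subunits of that complex, Cdc26, Cdc23 and Cdc16, had log2 changes of 0.21, 0.12 and -0.19; Cdc26 read 622.8, 611.6 and 509.1 in null mice and 519.4, 411.9 and 578.4 in control mice.

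The remaining genes named Cdc share no task. Cdc123, a factor for the assembly of initiation factor eIF2, read 601.3, 694.7 and 606.1 in null mice, all below the 758.2, 732.6 and 788.1 of control mice (log2 change -0.26, SE 0.12, adjusted p = 0.309). Cdc37 was at 1316, 1312 and 1372 in null mice, against 1222, 1077 and 1209 in control mice (log2 change 0.19, adjusted p = 0.424). Cdc5l read 493.7, 397.9 and 468.1 in null mice, against 364.2, 401.5 and 360.5 in control mice (log2 change 0.26), and its second probe set 145.4, 99.8 and 193.8 in null mice and 111.1, 193.5 and 132.3 in control mice (log2 change -0.00). The ubiquitin-conjugating enzyme Cdc34 had a log2 change of 0.19. Cdc73, of the RNA polymerase-associated Paf complex, was too dim to be tested, at no more than 78.2.

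**Figure D4:**
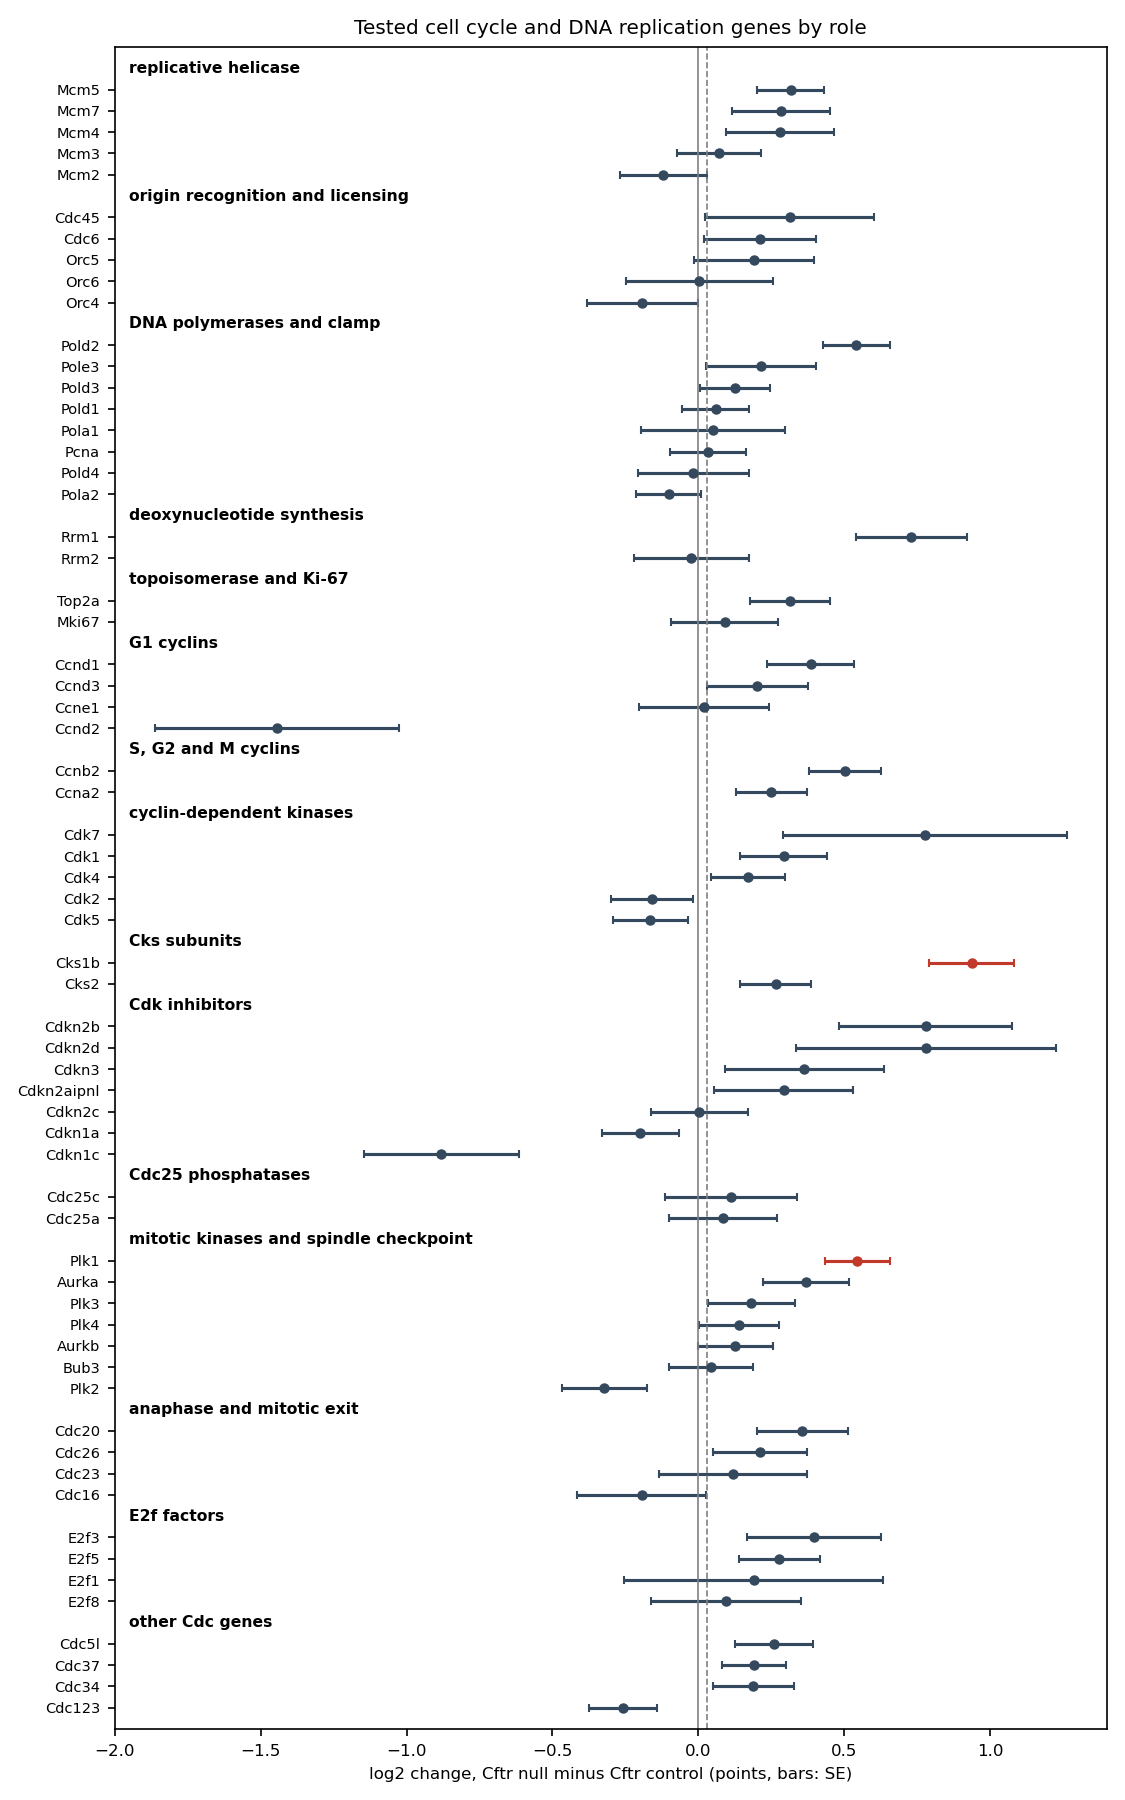
Log2 change, Cftr null minus Cftr control (horizontal axis; points with bars of 1 SE), of the 63 tested member genes grouped by role; red points have an adjusted p under 0.05, the solid line marks 0 and the dashed line the median of all tested probe sets, 0.03. The points lie mostly between 0 and 0.5, with Cks1b (0.94) and Plk1 (0.54) in red and Ccnd2 (-1.45) and Cdkn1c (-0.88) farthest to the left.

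Of the 11 genes with several tested probe sets, 4 had probe sets on both sides of 0: Pola2, Mki67, Cdkn1a and Cdc5l. Of the 75 tested probe sets, 65 were above the filter level in all 6 mice, and 2, those of Cdkn1c and E2f3, were above it in 1 group only. The 29 that were not tested reached at most 256.2, in a single mouse for a second Mcm5 probe set. The 75 tested probe sets, without these 29, are set beside all tested probe sets in the plot of change against level.

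**Figure D5:**
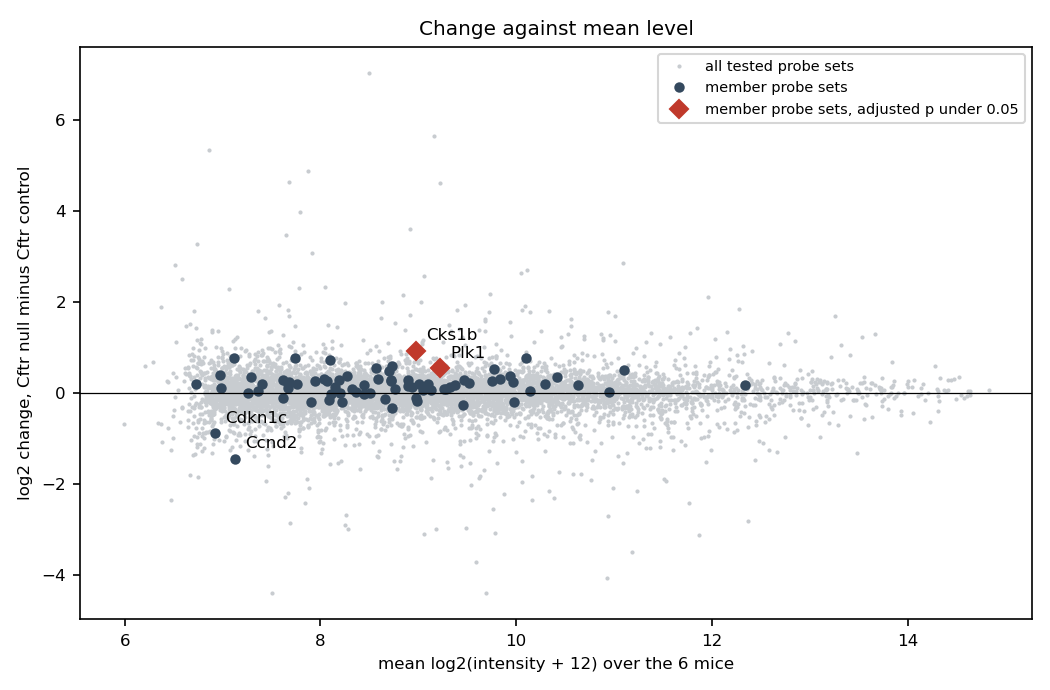
Log2 change, Cftr null minus Cftr control (vertical axis), against the mean log2(intensity + 12) over the 6 mice (horizontal axis), for all 7601 tested probe sets (grey), the member probe sets (blue) and the 2 called members (red diamonds). Most members lie within the dense band of all probe sets, and their log2 changes run from -1.45 (Ccnd2) to 0.94 (Cks1b), at the ends outside it.

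Other genes of division, which the symbols of the rule do not reach, were read from 3 lists. Of 65 mitosis genes listed, 40 were tested, and 0 passed in either direction in limma (7 at an unadjusted p under 0.05 higher, or 17.5% against 9.1% of all, and 0 lower); the log2 change was above 0 in 33 and its median was 0.19. Birc5, or survivin, of the chromosomal passenger complex, read 675, 643.1 and 684.6 in null mice, against 524.3, 504.4 and 411.3 in control mice (log2 change 0.47, SE 0.13, adjusted p = 0.114). Nek2, a centrosome kinase, was at 402, 408.1 and 449 in null mice, against 308.1, 330.3 and 334.6 in control mice (log2 change 0.36, adjusted p = 0.182). Both had groups that did not overlap.

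Of 43 further DNA synthesis genes, 26 were tested and 0 passed in either direction (1 at an unadjusted p under 0.05 higher, or 3.85%, and 0 lower), with 20 above 0 and a median of 0.13. Rfc4, of the complex that loads Pcna, read 190.6, 223.7 and 185.6 in null mice, against 175.2, 128.8 and 121.9 in control mice (log2 change 0.47, adjusted p = 0.287), and the ligase Lig1 388.9, 316.5 and 436.3 in null mice, against 332.9, 265 and 271.1 in control mice (log2 change 0.38, adjusted p = 0.302). Of 63 genes of cell cycle control and DNA damage, 44 were tested, 1 fell and 0 rose. The share that fell, 2.27%, is near the 1.87% of all tested probe sets. At an unadjusted p under 0.05, 9 (20.5%, against 8.17% of all) were lower and 1 (2.27%, against 9.1%) was higher, and 20 were above 0, with a median of -0.03. The gene that fell was Sesn1, sestrin 1, a target of p53 that restrains growth signalling. It read 1106, 1335 and 964.4 in null mice, against 1909, 2753 and 2093 in control mice (1.97-fold lower, log2 change -0.98, SE 0.18, adjusted p = 0.0312). The call for Sesn1 did not hold in every alternative: the list had 0 genes past the threshold in males only and without a variance trend, and between 0 and 1 with 1 mouse left out.

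Markers of other cells were read beside these values. All 9 measured enterocyte markers (of 11 listed) were tested, and 0 passed in either direction. The log2 change was below 0 in 8, of which 4 had groups that did not overlap. Their summed level, in which Apoa4 was the brightest, lay between 55541 and 92021 in null mice, against 102637 to 125346 in control mice. Of 9 mast cell markers, 5 were tested and Mcpt1, Mcpt2 and Cpa3 rose, Cpa3 having passed the filter through the null mice alone. The other tested markers, Kit and Tpsb2, had log2 changes of -0.04 and -0.38. The sum over all 9 lay between 4631 and 12297 in null mice, where it is mostly that of Mcpt1 and Mcpt2, against 795 to 981 in control mice. Smooth muscle markers, all 8 tested and Actg2 risen (log2 change 1.35, adjusted p = 0.0151), summed to between 16858 and 21379 in null mice, against 9534 to 14317 in control mice. The part of these cell types in the values of the cell cycle genes was not tested. B cell markers (11 of 12 measured, 7 tested) summed to between 1325 and 1712 in null mice and 1389 to 1775 in control mice. Germinal centre markers (5 of 7 measured) summed to between 824 and 1140 in null mice and 794 to 1160 in control mice, and T and NK cell markers (11 of 12) to between 1729 and 2588 in null mice and 1533 to 2754 in control mice. Among them were Cd79a, S1pr2 and Gzma. The sums of these 3 lists overlapped between the groups, though some single probe sets did not. The dimmer tested Ms4a1 probe set read 42.8, 100.3 and 141.5 in null mice, against 211.7, 160.3 and 197.7 in control mice (log2 change -1.03, limma adjusted p = 0.218). Among probe sets too dim to be tested, those of Cd8a, Klrd1 and Fcer2a were lower in null mice without overlap. Those of Gcsam and a Cd3d probe set were higher without overlap. The T cell genes Cd3d, Cd3g and Cd8b1 were dim in every mouse. Goblet cell markers (5 of 6 measured, Tff3 among them) summed to between 67825 and 69161 in null mice and 62620 to 76869 in control mice, and pancreas markers (6 of 10, Ctrb1 among them) to between 1992 and 3223 in null mice and 2713 to 2986 in control mice. The single Paneth cell marker measured, Mmp7, lay between 3786 and 4904 in null mice, against 1235 to 3687 in control mice (log2 change 0.89, adjusted p = 0.26). Crypt base markers (6 of 9 measured, 3 tested) overlapped too, at 3839 to 4570 in null mice and 3568 to 4603 in control mice; their sum is mostly that of the ion carrier Slc12a2, and Lgr5 and Ephb3 were dim.

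Whether the effect of genotype differed between males and females was tested in a model with sex and its interaction with genotype. In limma 0 of the 75 member probe sets passed (2 at an unadjusted p under 0.05; lowest adjusted p = 0.9998), as did 0% of all tested probe sets (236 at an unadjusted p under 0.05). With a single female in each group, this model has little power.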

How the data were processed

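The authors deposited 1 table of probe set intensity values on a linear scale, already scaled; the sources used here do not name the software. The values were used unchanged, since the arrays' trimmed means differed by under 10%, and turned into log2(intensity + 12), 12 standing at the 10th percentile of values above 0. A fold change on this scale understates changes of dim genes. After 66 control probe sets were dropped, 12422 remained, and the platform annotation gave 1 symbol to 10833, several to 396 and none to 1193; only the first kind was named. The filter level of 109.7, the 40th percentile, had to be exceeded on 3 or more arrays, which left 7601 probe sets.

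Null and control mice were compared with limma 3.58.1 in R 4.3.3 (lmFit and eBayes, trended variance; two-sided tests), adjusting by Benjamini-Hochberg over all 7601 with a threshold of 0.05. For Ccnd2, Cdkn1c, E2f3 and Cdk7, the lower group had its mean on the log2 scale under the filter level. The fold given for them sets the mean of the higher group against that level. It takes no account of the spread between mice, so it is not a minimum for the true difference. The functions were tested on simulated data. The labels give no batch or pairing, replicate numbers follow the accession order, and nothing says which mice were littermates.

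Members and lists were chosen with earlier results of these data known. Values per mouse are given for members past the threshold, for the 2 with the smallest p and the one with the highest mean in each role, and for others, such as Plk2, Pola2, Pole4, Bub1, Ccne2, Cdkn1b and Cdkn2d, chosen after their values were seen; for the lists, for genes past the threshold or the 2 with the smallest p. An s, f, r, i, g or x ahead of the _at ending of a name was taken to mark possible cross-hybridization. Besides Plk1 and Pold2, the probe sets that stand for Plk3, E2f8, E2f1, Cdc25c and Mcm3 carry such a letter.

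The alternatives were quantile normalization, equal medians, pseudocounts of 3 and 48, no filter, a filter level of 288.7 (60th percentile), a model with sex, the males alone, untrended variance, each mouse left out in turn, and, for genes, probe sets averaged or those with marked names dropped.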

Additional observations from a re-analysis of the deposited data

How the results depend on the processing

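The median log2 change of the members stayed between 0.16 and 0.20 in every alternative run, and that of all tested probe sets between 0.02 and 0.04. Of the members, 1 probe set and 1 gene were called higher, in place of 2, with quantile normalization, without the filter, with sex as a covariate and without a variance trend, and 0 in males only; 3 were with the filter at the 60th percentile, where Pold2 also passed (adjusted p = 0.0358); 1 was called lower with sex as a covariate, Ccnd2 (adjusted p = 0.0412). Leaving out 1 mouse gave 0 to 1 called higher; 1 gene was called without probe sets of marked names. Cks1b passed in 11 of 15 alternatives (adjusted p between 0.014 and 0.106) and the called Plk1 probe set in 4 of 15 (between 0.0322 and 0.238). Over all probe sets, 50 rose and 85 fell in males only, 49 and 92 without a trend, and 17 to 68 and 35 to 117 with 1 mouse left out. Genes of cell cycle control and DNA damage called lower, 1 in the report, numbered 0 in males only and without a trend, and 0 to 1 with 1 mouse left out. Of 531 log2 changes of named members under alternatives, 19 changed sign, all in genes that did not pass. With 1 mouse left out, the log2 change ranged from -0.19 to 0.23 for Orc6, -0.066 to 0.11 for Pcna, -0.11 to 0.20 for Mki67, -0.011 to 0.31 for Cdc25c, -0.081 to 0.17 for Cdc25a, -0.16 to 0.25 for E2f8 and -0.17 to 0.13 for Rrm2. In males only it was -0.16 for Cdc45, -0.066 for Orc6 and -0.10 for Mki67, and with quantile normalization -0.0099 for Orc6. The causes were not tested. Signal over background limits the dim members, such as Bub1, Cdkn1b and Ccne2.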

Other observations

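Of the 44 tested genes of cell cycle control and DNA damage outside the rule, null mice stood apart from control mice in 12, higher in 4 (9.09%, against 13.1% of all tested probe sets) and lower in 8 (18.2%, against 10.8%). The 4 genes below were picked out from these 12 after their values were seen, and none of the 4 passed the test. Foxm1, a factor that controls genes of mitosis, read 510.6, 500.5 and 458.4 in null mice, against 737.3, 603.4 and 698.6 in control mice (log2 change -0.46, SE 0.13, adjusted p = 0.109), for a probe set whose name marks possible cross-hybridization; its other tested probe set had overlapping groups (log2 change -0.65, SE 0.66). Myb, a factor of progenitor cells, read 1725, 1499 and 1562 in null mice, against 1229, 1074 and 1310 in control mice (log2 change 0.40, SE 0.12, adjusted p = 0.145), also for a probe set with such a name. Id2, an inhibitor of helix-loop-helix factors, was at 1312, 1507 and 1156 in null mice, against 1749, 1968 and 1853 in control mice (log2 change -0.49, SE 0.13, adjusted p = 0.102), and Gas1, named for growth arrest, at 246.7, 285.7 and 233.5 in null mice, against 428, 330.1 and 382.6 in control mice (log2 change -0.55, SE 0.15, adjusted p = 0.114).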
